A study of Catharanthus roseus with 35 samples.

Results

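TEX2 (CATHA_18990), V19H (CATHA_33621) and CATHA_22059 are 3 cytochrome P450 genes of Catharanthus roseus that belong to, or lie close to, the side branches of tabersonine metabolism. They were taken by gene ID, 3 of the 35722 genes in the expression files. TEX2 and V19H carry the names that the study gave them in its list of alkaloid genes. CATHA_22059 has no assigned function. In the study's phylogeny it grouped with tabersonine 19-hydroxylase (T19H), and it had been picked among genes higher in idioblasts in these same samples. For CATHA_22059 the idioblast contrast is a description of how it was chosen. For V19H it repeats a contrast in which the study had reported significantly higher expression in idioblasts from these samples.

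Cytochrome P450s are membrane-bound monooxygenases that insert oxygen into small molecules. In C. roseus, tabersonine stands at a branch point of monoterpenoid indole alkaloid (MIA) metabolism. In the leaf it is carried towards vindoline, while other oxidations divert it or related aspidosperma alkaloids. Tabersonine epoxidases (TEX1 and TEX2) turn tabersonine into the epoxide lochnericine. Vincadifformine 19-hydroxylase (V19H) hydroxylates vincadifformine to minovincinine, which the acetyltransferase MAT can then acetylate. T19H and the acetyltransferase TAT act in the same manner on tabersonine derivatives and are known from roots. Idioblasts are isolated leaf cells that accumulate alkaloids and can be sorted by their autofluorescence.

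The study sequenced RNA from cultivar Little Bright Eye. Idioblast, mesophyll and unsorted total protoplasts (3 samples each) and whole leaves of the same experiment (2 samples, here FACS leaves) came from fully developed young leaves of pairs 2 to 4, counted from the shoot apex. The plants were flowering and kept in a growth chamber at 25 °C with 16 h of fluorescent light. All 11 samples were made into Smart-seq2 libraries. Whole leaves of pair 1, the youngest, to pair 4 were taken from plants kept in that chamber (indoors) or in a south-facing place outdoors, with 3 samples for each pair and condition. Pairs 1 and 4 were sequenced on Illumina from TruSeq libraries and pairs 2 and 3 on Nanopore. No transgene was involved in any group. The 3 protoplast groups had gone through protoplast isolation and the whole leaves had not. Each protoplast sample pooled several plants, and the 4 leaf pairs of a condition came from the same plants.

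The 23 Illumina libraries held 10263533 to 17625811 counts and the 12 Nanopore libraries 85976 to 732961 counts. The vindoline pathway genes D4H and DAT, used as idioblast markers, summed to 1356 to 3453 CPM (counts scaled to a common library size) in idioblast protoplasts, against 47.6 to 150.2 in mesophyll and 109.5 to 181.8 in total protoplasts, as the sort label says. The study describes its mesophyll population as made up of that cell type alone and its idioblast population as highly enriched. No mesophyll marker list was used here, and the mesophyll protoplasts also held 6 epidermal MIA genes (LAMT, SLS1, TDC, STR, SGD and GS1), summing to 2007 to 2117 CPM against 231.8 to 276.0 in idioblasts. The 2 FACS leaves stood apart from each other, with 596.7 and 2510 CPM for the same 6 genes. The study had discarded a further leaf sample because its RNA was degraded. It kept the FACS leaves out of its own model because they varied more within their group. Levels below are CPM scaled by the trimmed mean of M-values (TMM), and levels of different genes are not compared because gene lengths were not used here.

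TEX2 was detected in protoplasts and in no whole-leaf library. Its levels in the idioblast protoplasts were 3.26, 1.51 and 7.35 CPM in replicates 1 to 3, from 47, 18 and 63 counts. In mesophyll protoplasts they were 1.28, 1.05 and 0.249 CPM, from 11, 10 and 2 counts. In total protoplasts they were 1.50, 0.0888 and 0 CPM, and 14 of the 15 counts were in replicate 1. Every idioblast sample lay above every mesophyll and total sample, although the lowest idioblast value and the highest total value were nearly equal. With plain library sizes in place of TMM, idioblast replicate 2 (1.15 CPM) lay below total replicate 1 (1.17 CPM), so that the idioblast and total samples overlapped.

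All 26 whole-leaf libraries held 0 counts of TEX2. Over the 14 Illumina leaf libraries, with 180131366 counts in all, the limit that a count of 0 allows (3 counts) was 0.0137 CPM. The 12 Nanopore libraries held 5584762 counts, and their joint limit was 0.554 CPM. The limit of a single Nanopore library was 5.47 to 26.6 CPM, so that a level like that of idioblast replicates 1 and 2 was not detectable in 1 such library. The leaf pairs and the protoplasts were made with different kits, so that kit and tissue cannot be told apart between them. The 2 FACS leaves, which had the kit of the protoplasts, held 0 counts. They had not gone through protoplast isolation, so that isolation and tissue cannot be told apart there either.

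**Figure D1:**
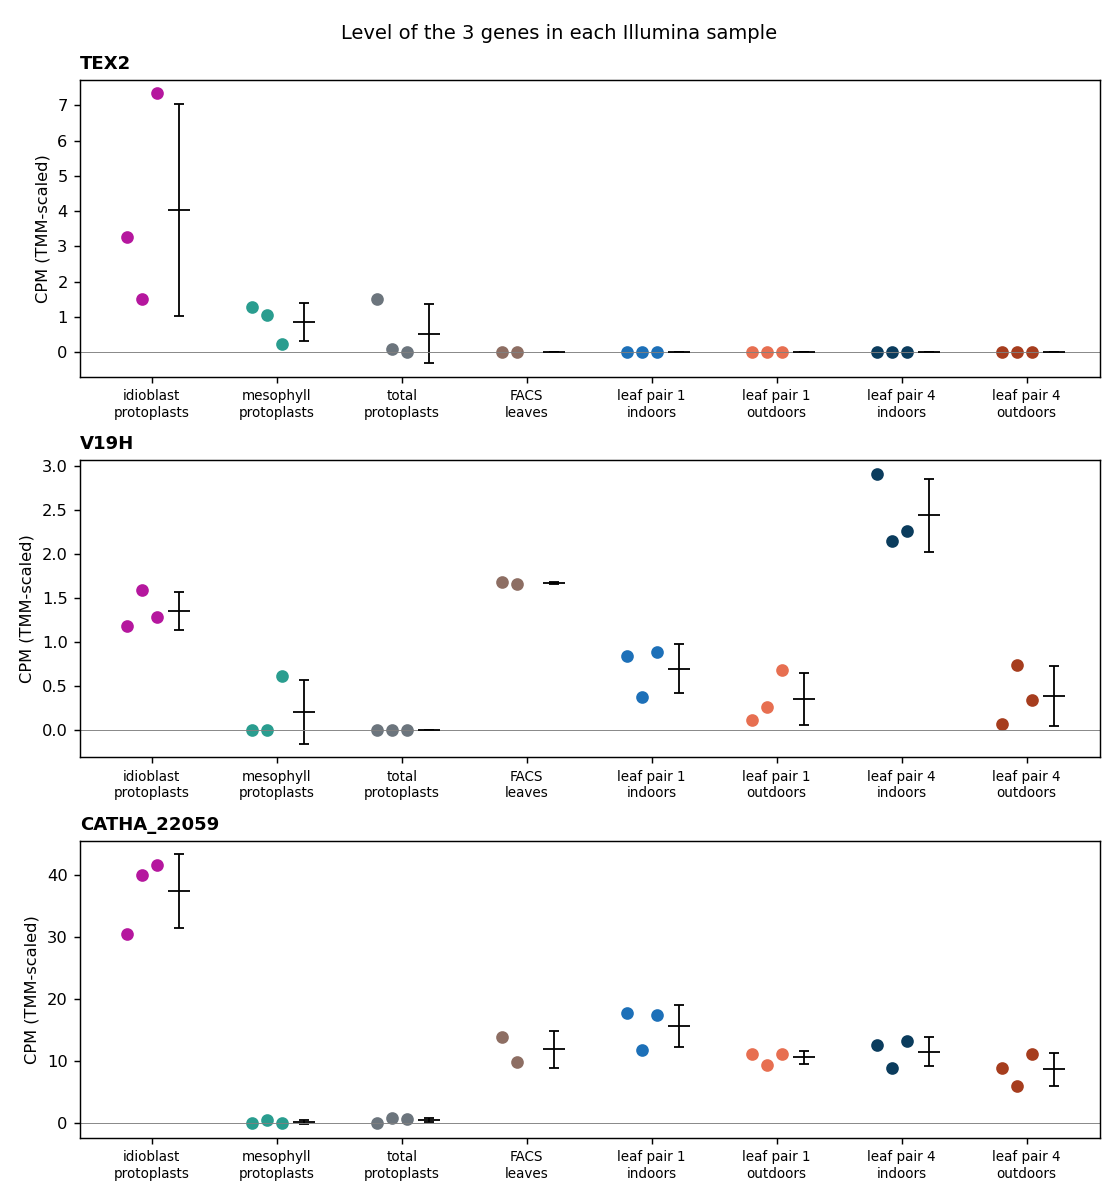
Level of TEX2, V19H and CATHA_22059 in each of the 23 Illumina samples, in TMM-scaled CPM on linear axes that differ between panels. Points are samples and the black marks are the group mean ± SD (n = 3, or 2 for the FACS leaves). TEX2 was above 0 in protoplasts and at 0 in all 14 leaf samples, whereas V19H and CATHA_22059 were above 0 in every idioblast and leaf sample. V19H was at 0 in all mesophyll and total samples other than mesophyll replicate 3 (0.621 CPM), which lay within the range of the outdoor leaves, and CATHA_22059 was at most 0.799 CPM in these 2 groups.

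V19H was read in every idioblast and every Illumina leaf library, and in 1 of the 6 mesophyll and total protoplast libraries. Its idioblast levels were 1.18, 1.59 and 1.28 CPM, from 17, 19 and 11 counts. Mesophyll replicates 1 and 2 had 0 counts and replicate 3 had 5, or 0.621 CPM, which is within the range of the outdoor leaf samples. The total protoplasts held 0 counts in all 3 libraries, which allows up to 0.101 CPM over the group. The FACS leaves stood at 1.68 and 1.66 CPM, from 25 and 16 counts, which lay above the idioblast samples and outside their range.

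Among the leaf pairs, V19H was highest in pair 4 indoors, with 2.91, 2.14 and 2.26 CPM. Pair 4 outdoors had 0.0698, 0.746 and 0.346 CPM. Pair 1 had 0.837, 0.377 and 0.883 CPM indoors and 0.116, 0.261 and 0.682 CPM outdoors. The order of the group means was therefore pair 4 indoors, FACS leaves, idioblasts and pair 1 indoors, each separate from the next by its samples, then pair 4 outdoors, pair 1 outdoors and mesophyll protoplasts, which overlapped with their neighbours, and total protoplasts at 0. With plain library sizes in place of TMM the idioblast and pair 1 indoors samples overlapped as well, and the order of the 2 outdoor groups turned. Kit, experiment and tissue cannot be told apart between the leaf pairs and the other groups in this order. The FACS leaves and protoplasts also came from leaf pairs 2 to 4 together. The lower FACS leaf (1.66 CPM) and the highest idioblast sample (1.59 CPM) were close, and both rest on few counts.

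CATHA_22059 had by far the most counts of the 3 genes. Its idioblast levels were 30.5, 40.0 and 41.5 CPM, from 440, 477 and 356 counts. Mesophyll protoplasts had 0, 0.524 and 0 CPM, with 5 counts in all, and total protoplasts had 0.107, 0.799 and 0.649 CPM, with 16 counts in all. The idioblast samples stood apart from every other Illumina sample, and the mesophyll and total samples overlapped.

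In whole leaves CATHA_22059 was present in every Illumina library. The FACS leaves had 13.9 and 9.84 CPM. Leaf pair 1 had 17.8, 11.8 and 17.4 CPM indoors and 11.2, 9.47 and 11.1 CPM outdoors. Leaf pair 4 had 12.6, 8.86 and 13.2 CPM indoors and 8.94, 5.97 and 11.2 CPM outdoors. These 5 leaf groups overlapped with their neighbours in the order of the means, which ran pair 1 indoors, FACS leaves, pair 4 indoors, pair 1 outdoors and pair 4 outdoors, and all lay below the idioblasts and above the total protoplasts. With plain library sizes pair 1 indoors was separate from the group after it, and the order became pair 1 indoors, pair 1 outdoors, pair 4 indoors, FACS leaves and pair 4 outdoors. The leaf pairs had another kit than the FACS leaves and protoplasts here too.

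The comparison of idioblast with mesophyll protoplasts asks in which leaf cell the genes are used. V19H and CATHA_22059 were called higher in idioblasts and TEX2 was not. A call required the adjusted p to be 0.05 or lower and the change to be 1 or more on the log2 scale. Of all 18339 genes tested, 16.3% were called and 7.21% were called higher. CATHA_22059 was higher by 7.57 ± 0.56 on the log2 scale (SE, adjusted p = 6.5e-09, edgeR quasi-likelihood test), and its pooled counts gave a ratio of 190.9 with a 95% counting interval of 81.6 to 589.1. V19H was higher by 2.76 ± 0.93 (adjusted p = 0.035), a pooled ratio of 7.05 (2.82 to 22.7). TEX2 had a log2 fold change of 2.197 ± 0.98 (adjusted p = 0.13), a pooled ratio of 4.17 (2.66 to 6.82), and all 3 idioblast samples lay above all 3 mesophyll samples. These intervals cover counting error only.

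The V19H call did not hold in every fit. It was lost when the replicate number was added as a block, with a log2 fold change of 3.06 and an adjusted p of 0.052, and in 5 of the 6 fits that left out 1 library, where the adjusted p ran from 0.0042 to 0.13. Without mesophyll replicate 3, which held all 5 mesophyll counts, mesophyll was at 0. In the same contrast 5 of the 6 epidermal genes were called lower in idioblasts, while GS1 stood at 0.35 ± 0.12 on the log2 scale (adjusted p = 0.032), short of the size for a call. The share called lower over all genes tested was 9.12%. Of 6 genes of the internal phloem-associated parenchyma (G8H, 8HGO, IS, IO, 7DLGT and 7DLH) 3 were called lower, and the 6 summed to 103.5 to 179.5 CPM in idioblasts and 149.0 to 276.0 CPM in mesophyll. IS was at 0 in 2 of the 3 idioblast libraries and no other gene of the 2 lists was at 0 in any of them. Their part in the result was not tested. In bulk samples such as these, fewer cells of a type and less RNA per cell cannot be told apart.

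Against total protoplasts, V19H and CATHA_22059 were again called higher in idioblasts, where 16.0% of all genes tested were called and 7.98% called higher. The idioblast samples are the same as in the previous contrast. CATHA_22059 was higher by 6.14 ± 0.48 on the log2 scale (adjusted p = 1.6e-08). V19H was 13.4-fold higher against a floor of 3 counts over the 3 total libraries (adjusted p = 0.0021). The counting interval of its pooled ratio reached down to 10.45. TEX2 had a log2 fold change of 2.96 ± 1.03 (adjusted p = 0.053) and a pooled ratio of 7.28 (4.25 to 13.4). With the replicate number as a block TEX2 passed, at 3.29 and an adjusted p of 0.018, and without total replicate 1, where 1 count is left in that group, its fitted log2 fold change was 6.14 with an adjusted p of 0.0064. Leaving out idioblast replicate 2 also made it pass, at 3.34 and 0.049.

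None of the 3 genes was called between mesophyll and total protoplasts, where 1.24% of all genes tested were called, or 53 genes in place of 227 with the replicate block. The log2 fold change was 0.76 ± 1.13 for TEX2 (adjusted p = 0.80) and -1.43 ± 0.85 for CATHA_22059 (adjusted p = 0.43). V19H had 5 counts against 0, all in mesophyll replicate 3 (adjusted p = 0.32). At this depth the counting interval of the TEX2 ratio ran from 0.872 to 3.60, so differences within it were not detectable.

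**Figure D2:**
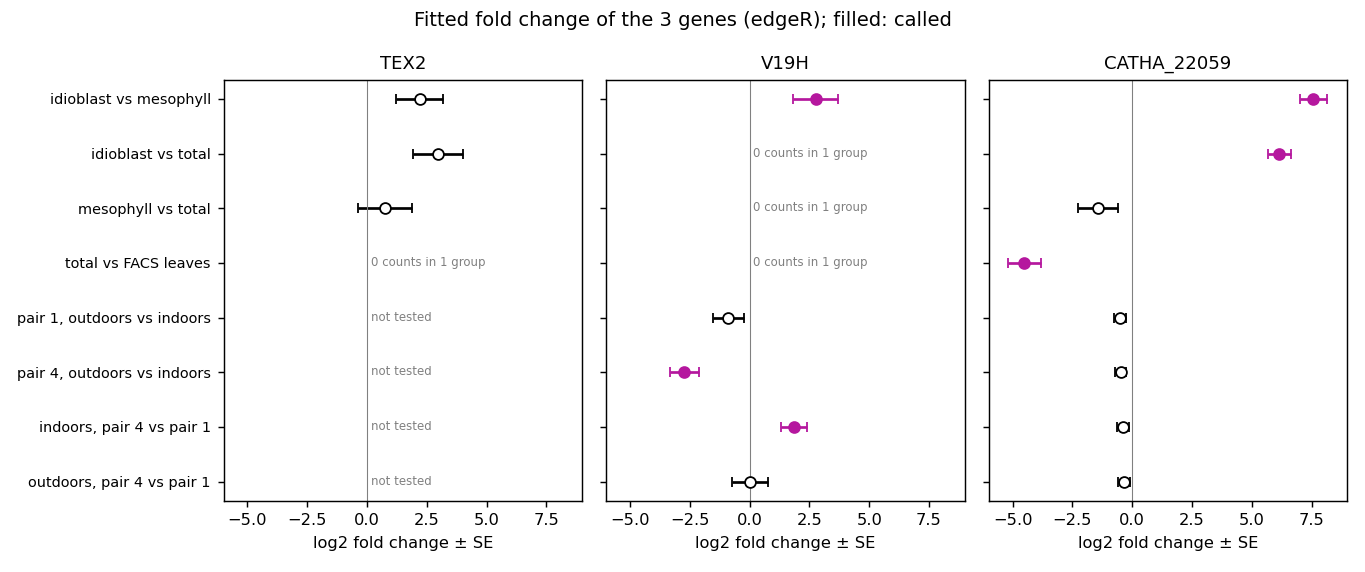
Fitted log2 fold change ± SE of the 3 genes in 8 comparisons (edgeR), where filled symbols mark genes called and open symbols genes not called. Comparisons with 0 counts in 1 group are written out, since a fitted fold change is then no measure of size. CATHA_22059 was called in 3 of the 4 comparisons with protoplasts, at 7.57, 6.14 and -4.51, not between mesophyll and total protoplasts and in no comparison of leaf pairs, and V19H was lower outdoors in pair 4 by 2.73.

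V19H and CATHA_22059 were called lower in total protoplasts than in FACS leaves and TEX2 was not called, in a comparison in which 50.1% of all genes tested were called and 27.5% called lower. CATHA_22059 fell by 4.51 ± 0.68 on the log2 scale (adjusted p = 0.00026), a pooled ratio of 0.0435 (0.0246 to 0.0718). V19H, with 41 counts in leaves and 0 in total protoplasts, was 16.6-fold lower with total protoplasts set to a floor of 3 counts (adjusted p = 0.006). The counting interval of its pooled ratio reached up to 0.0776. TEX2 had 0 counts in leaves and 15 in total protoplasts (adjusted p = 0.076), and the samples overlapped at 0. It passed without total replicate 3 (adjusted p = 0.045) and with DESeq2 (0.025), while without total replicate 1, which held 14 of the counts, its fitted log2 fold change was 2.30 with an adjusted p of 0.38.

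With the replicate block, the call of V19H in that comparison was lost (adjusted p = 0.071) and 4793 genes in place of 8779 were called. Both idioblast marker genes, D4H and DAT, were called lower in total protoplasts than in FACS leaves, their sum going from 927.2 and 1030 CPM to 109.5 to 181.8 CPM. Of the epidermal genes 2 of 6 were called lower and of the phloem parenchyma genes 4 of 6, beside 27.5% of all genes tested. The epidermal count is thus close to the share over all genes. What these shifts contribute to the values of V19H and CATHA_22059 was not tested. Total protoplasts and FACS leaves also differ by protoplast isolation, and its part was not tested.

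TEX1 (CATHA_20509), the paralogue that performs the same epoxidation as TEX2, was distributed otherwise. Its levels were 4.78 to 7.04 CPM in idioblasts, 5.23 to 12.6 in mesophyll and 7.51 to 16.2 in total protoplasts. It was not called between any 2 of these, with log2 fold changes of -0.60 ± 0.52 (idioblast against mesophyll, adjusted p = 0.43) and -0.90 ± 0.52 (idioblast against total, adjusted p = 0.21). In leaves, where TEX2 was at 0, TEX1 was read in 218 and 8 counts in the FACS leaves, 26 to 92 in pair 4 indoors and 7 to 44 in pair 4 outdoors, but in at most 3 counts in any pair 1 library. Pair 4 exceeded pair 1 by 5.81 ± 0.90 on the log2 scale indoors (adjusted p = 0.00032) and by 3.88 ± 0.94 outdoors (adjusted p = 0.0048).

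A ratio of the 2 epoxidase genes within a library does not depend on scaling. TEX2 made up 40.5%, 17.6% and 52.1% of the TEX1 and TEX2 counts in idioblasts. It made up 19.6%, 9.01% and 1.94% in mesophyll and 16.7%, 0.546% and 0% in total protoplasts. In the FACS leaf of replicate 1 it was 0 of 218 counts, with an exact (Clopper-Pearson) upper limit of 1.68%, and in pair 4 indoors 0 of 69, 92 and 26 counts, with upper limits of 5.21%, 3.93% and 13.2%. Idioblast and mesophyll libraries overlapped in this share, and idioblast replicate 2 lay near the highest library of the other groups. Between equally numbered libraries, which the study describes as paired, the idioblast share was the higher in 3 of 3 pairs against mesophyll and in 3 of 3 against total protoplasts, and the mesophyll share was above the total share in 3 of 3.

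The mean log2 ratio of TEX2 to TEX1 counts, with 0.5 added to each, was -0.87 in idioblasts, -3.53 in mesophyll and -5.66 in total protoplasts. The difference was 4.78 between idioblast and total protoplasts (exact permutation test, two-sided, p = 0.1, the smallest that 3 against 3 samples allow) and 2.66 between idioblast and mesophyll protoplasts (exact p = 0.2). Mesophyll and total protoplasts differed by 2.12 (exact p = 0.3). Adjusted over these 3 comparisons each p was 0.3, so the ratio could not be shown to differ at this number of samples. Over the pairs the differences ran from 1.08 to 5.46 between idioblast and mesophyll, from 1.73 to 7.88 between idioblast and total and from 0.30 to 3.65 between mesophyll and total protoplasts, and an exact two-sided test over the signs of these differences, added after the data were seen, gave p = 0.25 for each, the smallest that 3 pairs allow. Reads of TEX1 and TEX2 could be confused to the extent that the genes are alike. The study's featureCounts settings name no option for reads that align to several places, and by default the tool does not count them. How many such reads these genes have was not tested.

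**Figure D3:**
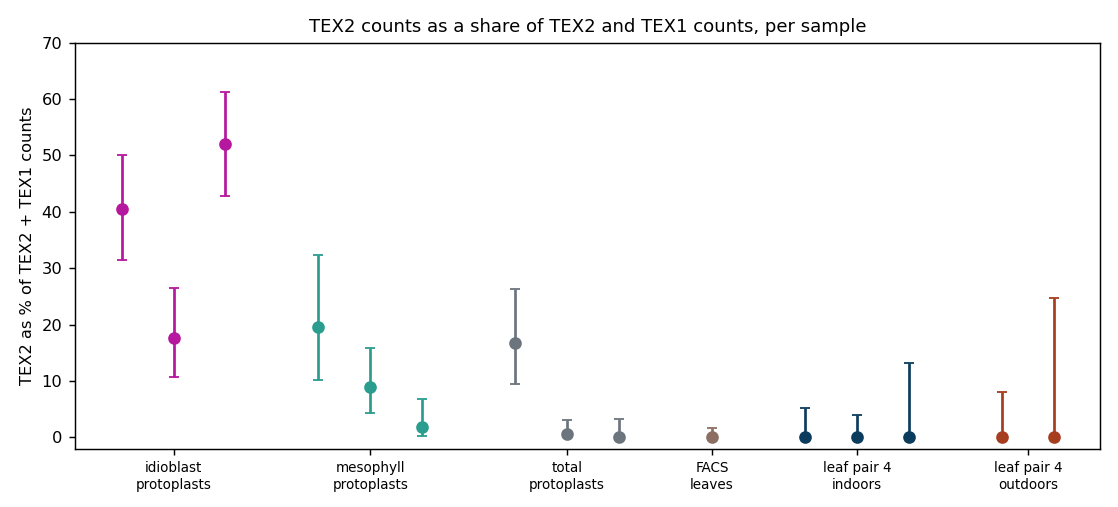
TEX2 counts as a percentage of the TEX2 and TEX1 counts of a library, for libraries with at least 10 such counts, with exact 95% binomial intervals as bars. Idioblast libraries stood at 17.6% to 52.1%, mesophyll libraries at 1.94% to 19.6%, and every leaf library shown at 0%.

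The other side-branch genes were nearly silent in these samples. T19H, the named relative of CATHA_22059, had 7 counts in idioblast replicate 3 and 0 in the other libraries. MAT, which acts after V19H, had at most 4 counts in any library and none in idioblasts, and TAT had at most 2 and none in idioblasts. None of the 3 passed the filter on low counts, so the 6 genes of the branch (TEX1, TEX2, T19H, TAT, V19H and MAT) left 3 that could be tested among protoplasts, of which only V19H was called between idioblasts and mesophyll. The ratio of V19H to T19H counts could not be tested for the same reason.

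The genes that make tabersonine and those that carry it to vindoline frame these values. Of 5 genes of the supply (SAT, PAS, DPAS, CS and TS), DPAS was higher in idioblasts than in mesophyll (log2 fold change 2.06 ± 0.17, adjusted p = 4.9e-08), TS, which forms tabersonine, was lower (-1.58 ± 0.15, adjusted p = 1.8e-07) and 3 were not called. Of 8 vindoline genes, T16H2, 16OMT, 16NMT, D4H and DAT were higher, T3R was lower, T16H1 was not called and T3O had no counts in either group. The median log2 fold change was 4.39 over the 7 vindoline genes with counts and -0.26 over the 5 supply genes, beside -0.02 over all genes tested. V19H at 2.76 and TEX2 at 2.197, which was not called, lay between those medians. The vindoline list holds D4H and DAT, however, which also served as the idioblast markers. Among the other vindoline genes with counts, T16H2 (8.52) and 16OMT (4.39) lay above V19H and TEX2. T16H1 (0.82), 16NMT (1.75) and T3R (-2.03) lay below them. The place of V19H and TEX2 below the vindoline median therefore depends on D4H and DAT being in that list.

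CATHA_22059 is 1 of several P450 genes that the study set beside alkaloid P450s in its phylogeny. Taken up here beside it are 6 of the others, CATHA_14613 (also near T19H), CATHA_29024 and CATHA_7265 (near V19H and T3O), and CATHA_9749, CATHA_9750 and CATHA_29341 (near the TEX and T16H genes). The candidates near alstonine synthase and geissoschizine oxidase were not taken up. The 6 were picked by the study from genes higher in idioblasts in these samples, so that all 6 being called higher is no independent evidence. Against mesophyll their log2 fold changes had a median of 5.52, or 5.02 with the 2 genes without mesophyll counts set to a floor of 3 counts. They parted in whole leaves. CATHA_14613, the closest to CATHA_22059 by subclade, was at 0.583 to 1.59 CPM in idioblasts and reached 4.46 CPM in pair 1 outdoors, and CATHA_29024 was at 12.1 to 19.8 CPM in idioblasts but at 67.5 to 77.3 CPM in pair 1 indoors. The leaf pairs had another kit than the protoplasts. In the FACS leaves, which had the protoplast kit, CATHA_14613 was at 0.201 and 0.518 CPM, below the idioblasts. CATHA_29024 was at 41.0 and 93.1 CPM there, above the idioblasts.

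CATHA_22059 was not called with leaf age. It had a log2 fold change of -0.38 ± 0.24 from pair 1 to pair 4 indoors (adjusted p = 0.20) and -0.35 ± 0.24 outdoors (adjusted p = 0.24). CATHA_29024, CATHA_7265, CATHA_9749 and CATHA_9750 were called lower in pair 4 in both conditions, with log2 fold changes from -1.06 to -2.68 indoors. Of all genes tested, 10.8% were called lower in pair 4 indoors and 13.9% outdoors. Like CATHA_22059, CATHA_29341 and CATHA_14613 were not called in either condition. The difference between these genes and CATHA_22059 was not itself tested.

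**Figure D4:**
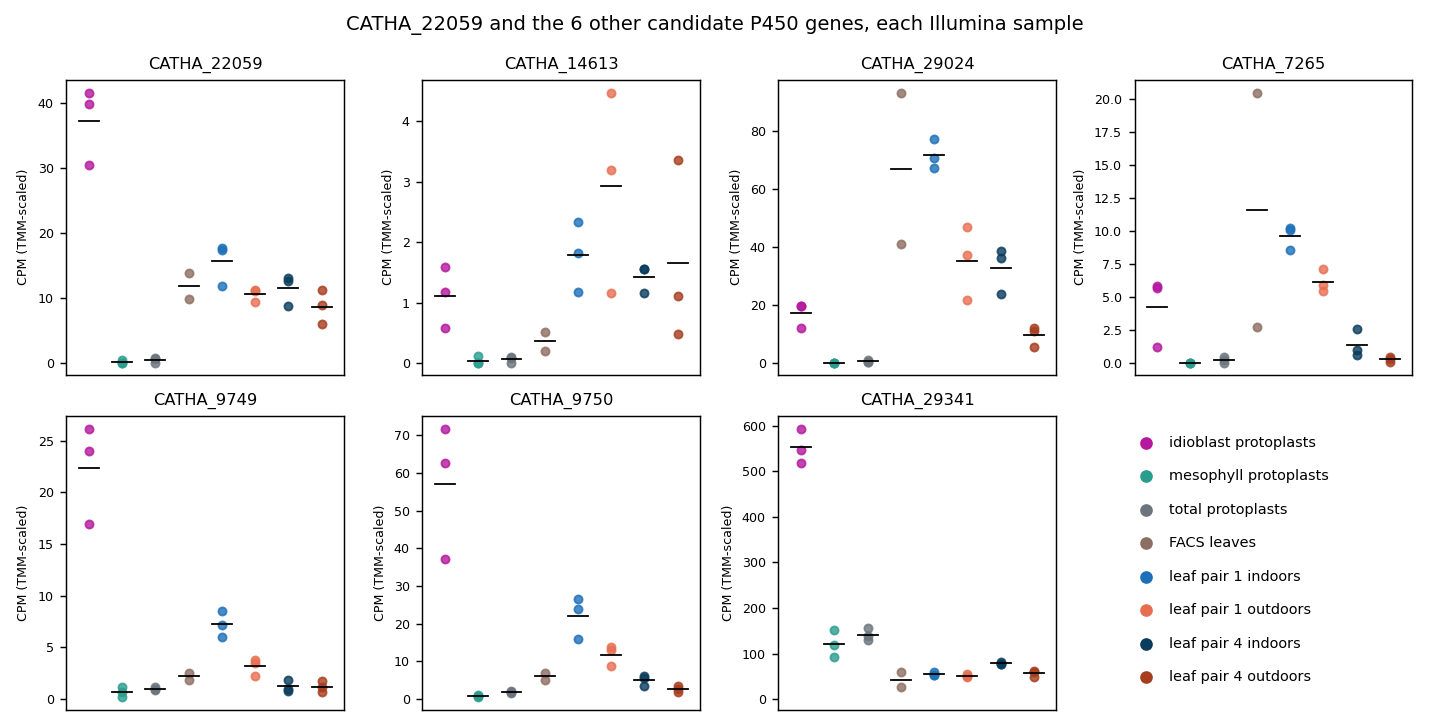
Level of CATHA_22059 and 6 of the other candidate P450 genes in each Illumina sample, in TMM-scaled CPM on linear axes that differ between panels, with the group mean as a bar. CATHA_22059, CATHA_9749, CATHA_9750 and CATHA_29341 had their highest samples in idioblasts, at up to 41.5 CPM for CATHA_22059, whereas CATHA_14613, CATHA_29024 and CATHA_7265 had theirs in whole leaves. The leaf pairs had another kit than the other groups. In the FACS leaves CATHA_14613 was at most 0.518 CPM, below the idioblasts.

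The leaf comparisons ask how growth outdoors and leaf age bear on the genes. In pair 4, V19H was lower outdoors than indoors by 2.73 ± 0.62 on the log2 scale (adjusted p = 0.0041), a pooled ratio of 0.154 (0.0852 to 0.263) from 16 against 105 counts, and no outdoor sample reached an indoor sample. In this comparison 17.2% of all genes tested were called and 11.4% called lower. The call held in each of the 6 fits without 1 library, with log2 fold changes from -3.58 to -2.23. CATHA_22059 had -0.49 ± 0.24 (adjusted p = 0.12), and its groups overlapped.

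In pair 1 neither gene was called between the conditions, where 6.57% of all genes tested were. V19H had a log2 fold change of -0.89 ± 0.65 (adjusted p = 0.35) and its samples overlapped. CATHA_22059 had -0.51 ± 0.24 (adjusted p = 0.14), with all 3 outdoor samples below all 3 indoor samples. The outdoor effect on V19H was not shown to differ between the leaf pairs, the interaction being -1.84 ± 0.92 on the log2 scale (adjusted p = 0.24), and that on CATHA_22059 was 0.03 ± 0.34 (adjusted p = 0.97). In this interaction 3.99% of all genes tested were called.

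With leaf age, V19H was higher in pair 4 than in pair 1 indoors by 1.86 ± 0.55 on the log2 scale (adjusted p = 0.014), a pooled ratio of 3.56 (2.42 to 5.32), with no overlap between samples. In that comparison 22.3% of all genes tested were called and 11.5% called higher. The call was lost without pair 1 indoors replicate 2 (adjusted p = 0.058) and when the protoplasts were fitted together with the leaves (0.051). Outdoors V19H had a log2 fold change of 0.02 ± 0.74 (adjusted p = 0.98), where 22.4% of all genes tested were called. TEX2 was at 0 in all 12 of these libraries and was not tested.

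Other genes moved with the same contrasts. Of all genes tested, 11.4% were called lower outdoors in pair 4, and 10.8% were called lower in pair 4 than in pair 1 indoors. Outdoors in pair 4, 4 of the 5 tabersonine supply genes were lower, SAT, PAS, CS and TS, with log2 fold changes from -1.89 to -4.80, as were 4 of 6 epidermal genes, whose sum went from 530.0 to 723.4 CPM indoors to 218.5 to 291.8 CPM outdoors. Of the idioblast markers D4H was lower by 1.10 ± 0.13 on the log2 scale (adjusted p = 8.4e-05) and DAT was not called, and their sum went from 939.7 to 992.4 CPM to 443.9 to 537.6 CPM. None of the 6 phloem parenchyma genes was called. With leaf age indoors, where V19H was higher in pair 4, genes of all 3 marker lists were called lower in pair 4, namely 3 of 6 epidermal genes, 2 of 6 phloem parenchyma genes (IS at -1.34 and 7DLGT at -1.48) and DAT (-1.03, adjusted p = 0.002). D4H was not called there (0.33, adjusted p = 0.049). Without pair 1 replicate 3 or without pair 4 replicate 3 DAT was not called, and without pair 4 replicate 1 the phloem parenchyma genes called lower were 4. No marker gene was at 0 in these leaves, and the part of cell composition in the V19H values was not tested.

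The Nanopore libraries of pairs 2 and 3 were too shallow for a test of these genes. V19H had 2 estimated counts in replicate 3 of pair 2 indoors, 1 in replicate 3 of pair 3 indoors and 0 in the other 10 libraries, 6 of which were outdoors. CATHA_22059 had 21 estimated counts over 10 of 12 libraries. In pair 2 it had 2, 2 and 2 counts indoors and 1, 0 and 2 outdoors, and in pair 3 it had 4, 0 and 4 indoors and 1, 1 and 2 outdoors. The pooled outdoor to indoor ratio of CATHA_22059 was 0.434 (0.0702 to 2.03) in pair 2 and 0.488 (0.108 to 1.82) in pair 3, intervals that hold both no difference and several-fold ones.

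Over the 23 Illumina samples, Pearson's r of log2(CPM + 1) was 0.63 between V19H and CATHA_22059, 0.01 between TEX2 and V19H and 0.12 between TEX2 and CATHA_22059. Over the 11 FACS samples these values were 0.87, 0.18 and 0.47 in the same order. Over the 12 leaf-pair samples, where TEX2 was at 0, r was 0.19 between V19H and CATHA_22059. These are descriptions, since samples share their group, kit and preparation.

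Among 18698 other genes the profiles most like TEX2 were those of CATHA_25091 (r = 0.92), CATHA_5208 (0.92), described by the study as a fragment of an Exo70 family exocyst subunit, and CATHA_4542 (0.91). All 3 had their highest mean in idioblasts and at most 0.314 CPM in any leaf-pair library. Those most like V19H were CATHA_3148 (r = 0.85), CATHA_38341 (0.81) and CATHA_4476 (0.80), which had higher means in the FACS leaves than in idioblasts. Those most like CATHA_22059 were CATHA_28290 (r = 0.97), CATHA_12642 (0.97), named THAS for tetrahydroalstonine synthase, which makes a heteroyohimbine alkaloid, and CATHA_9503 (0.96). Within the 12 leaf-pair samples, however, r with CATHA_22059 was 0.66, 0.39 and -0.27 for these 3, so the likeness lay mostly in the contrast between protoplast groups.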

How the data were processed

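RNA-seq values of 35 samples were analysed for 35722 genes. For the 23 Illumina samples the deposited values were raw read counts per gene, which the authors made with Trimmomatic 0.39, HISAT2 and featureCounts 2.0.1 on their own gene models, with no strand option stated. For the 12 Nanopore samples the deposited values were estimated counts, which the authors made with minimap2 and Salmon 1.4.0, and these were rounded to whole numbers. Samples were grouped by their titles, and the replicates are labelled as biological.

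Genes were tested over the whole table with edgeR 4.0.16 in R 4.3.3 (quasi-likelihood test, robust, TMM, filterByExpr, Benjamini-Hochberg adjustment), and a gene was called where its adjusted p was 0.05 or lower and its log2 fold change 1 or more in size. Protoplast groups were fitted with leaf pairs 1 and 4 (21 samples), the contrast of total protoplasts with FACS leaves within the 11 FACS samples, and leaf pairs 1 and 4 alone (12 samples). DESeq2 1.42.0, RLE size factors, no filter, other sample sets, the replicate block and leaving out each replicate were alternatives, and the scripts were tested on simulated data. Genes named are the 3 members, the listed pathway genes and the 3 genes with the highest r to each member. Members, lists and tests were chosen with earlier results of these data known. CPM limits for 0 counts used 3 counts, and a library's limit ran from 0.157 to 0.373 CPM (Illumina) and from 5.47 to 26.6 CPM (Nanopore). Intervals cover counting error only, at 95%.

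The study describes the FACS samples as paired. Deviations from group means of equally numbered samples correlated at 0.13 to 0.30 (idioblast and mesophyll), 0.13 to 0.30 (idioblast and total) and 0.06 to 0.29 (mesophyll and total), and equal numbers were treated as pairs there. Leaf pairs of a condition came from the same plants, with correlations of -0.01 to 0.26 (indoors) and 0.33 to 0.44 (outdoors). Indoor and outdoor plants share only a number. No 2 replicates agreed within sampling noise.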

Additional observations from a re-analysis of the deposited data

Results flagged for a closer look

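CATHA_22059 had 21 estimated counts in the 12 Nanopore leaf samples, which no test here used. This is above the limit of 3 counts that a count of 0 allows, and there were no control samples for these libraries.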

How the results depend on the processing

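Depth limits TEX2 and V19H most, since neither passed 63 counts in any library, and the Nanopore samples allow no test. Of 120 values of the 3 genes under alternatives other than leaving out a library, 113 kept their direction and their side of the threshold. V19H between idioblast and mesophyll protoplasts fell short at 2.77 with only the 2 groups fitted (adjusted p = 0.088) and at 3.06 with the replicate block. TEX2 between idioblast and total protoplasts passed at 3.29 with the block. Between total protoplasts and FACS leaves TEX2 passed at 5.01 with DESeq2 and V19H fell short at -7.19 with the block, both fitted against 0 counts. V19H between leaf pairs 4 and 1 indoors fell short at 1.79 with 21 Illumina samples. The interaction of CATHA_22059 turned from 0.03 to -0.0090 with the block (adjusted p = 0.98). The block changed no other call of the 3 genes, indoor against outdoor contrasts included, where V19H in pair 4 was -2.72 (adjusted p = 0.024) although the numbers pair no plants.

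Genes called between mesophyll and total protoplasts were 493 with DESeq2, 131 with 23 samples, 46 with only the compared groups and 53 with the block, in place of 227, the share called higher going from 35.2% to 17% with the block. Between total protoplasts and FACS leaves 4793 were called with the block, and 198 in the interaction with 21 samples in place of 691. RLE size factors moved the median log2 fold change of all genes by less than 0.1 in all 9 comparisons.

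Leaving out 1 library at a time, the log2 fold change of V19H ran from 2.12 to 7.27 between idioblast and mesophyll protoplasts, the latter fitted against 0 counts, and from 1.55 to 2.05 between leaf pairs 4 and 1 indoors. Outdoors it ran from -0.82 to 0.90. That of TEX2 ran from 2.21 to 6.14 between idioblast and total protoplasts and from 2.30 to 5.996 between total protoplasts and FACS leaves. The interaction of CATHA_22059 ran from -0.21 to 0.24, and TEX1 between mesophyll and total protoplasts from -0.56 to 0.0065. Genes called ran from 164 to 415 between mesophyll and total protoplasts and from 219 to 991 in the interaction. The cause of these changes was not tested beyond the smaller number of samples.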
